A study of Arabidopsis thaliana with 42 samples.

Results

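The genes described here are 10 regulators of ovule and carpel development, followed through the unopened flower buds of Arabidopsis thaliana (strain Col-0). They are WUS, SPL, ANT, AIL6, BEL1, INO, ATS, STK, SHP1 and SHP2, chosen by locus identifier from the 37336 genes of the bud count table, and all 10 were among the 25730 genes tested. RNA sequencing of polyadenylated RNA gave 24 bud libraries in 6 groups of 4. The groups were buds labelled mtn1-1mtn2-1, labelled G3 or labelled WT, each from plants sown on MS medium with 100 µM spermidine or on MS medium alone (mock), and later moved to soil. The mtn1-1mtn2-1 plants carry mutant alleles of both MTN1 and MTN2, which code for the methylthioadenosine nucleosidases. These cleave methylthioadenosine, which is left over when spermidine, spermine or ethylene is made, so that its sulfur can return to methionine. The labels give the genotype of the G3 buds as mtn1-1mtn2-1 too, with G3 in brackets, and do not say what G3 stands for. Each library came from pooled frozen tissue, and nothing states that the 4 libraries of a group came from separate plants, so the p-values below measure only the spread between these libraries.

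Ovules arise from the placenta inside the carpel as finger-like primordia with a nucellus at the tip, where the megaspore mother cell forms, a chalaza in the middle, from which the inner and outer integuments grow, and a stalk, the funiculus. The homeodomain protein WUS, the organizer of stem cells in shoot and floral meristems, acts in the nucellus, and SPL (also called NOZZLE) is needed there and in anthers for sporogenous cells to form. ANT, BEL1, INO and ATS act in the chalaza and the integuments, and the MADS-box proteins STK, SHP1 and SHP2 act together in giving the ovule its identity. Several of these genes also act outside the ovule, WUS and SPL in anthers, ANT and AIL6 in the growth of all floral organs, and SHP1 and SHP2 at the fruit margin.

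The 2 disrupted genes were examined first. MTN1 (AT4G38800) stood at 3.57 ± 0.673 CPM (counts relative to library size after TMM scaling, mean ± SD, n = 4) in buds labelled mtn1-1mtn2-1 on spermidine and 3.96 ± 0.175 CPM on mock, at 93.4 ± 3.26 and 88.8 ± 3.04 CPM in buds labelled G3, and at 5.66 ± 0.826 and 5.25 ± 0.51 CPM in buds labelled WT. MTN2 (AT4G34840) likewise reached 9.07 to 11.9 CPM on spermidine and 8.16 to 10.4 CPM on mock in the libraries labelled G3, and at most 0.262 CPM in the other 16. In this table the disrupted genes were thus high in the libraries labelled G3 and low in those labelled WT, which goes against both labels. The deposited TPM table (transcript levels scaled for length and depth) gives the 2 names the other way round. Of the 24 count columns, the 8 labelled mtn1-1mtn2-1 matched best, across genes, the TPM column so named, and the 16 labelled G3 or WT matched the column with the other of these names. The labels of the count table are used below. Labelled G3 thus means the libraries with high MTN1 and MTN2, and labelled WT those with low levels. Under the names of the TPM table, a comparison of mtn1-1mtn2-1 with labelled G3 is one of mutant with wild type. A comparison with labelled WT is there one of mtn1-1mtn2-1 with G3. Each direction between labelled G3 and labelled WT turns round under those names. The MTN1 and MTN2 levels go with the names of the TPM table, high in wild type and low in both mutant labels. Library totals were 75.3 M to 92.6 M count units, or about 19.3 M to 23.7 M fragments.

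The buds were rich in floral organ identity RNAs, which are scarce in leaves. SEP3 ranged from 277 to 499 TPM and AP3 from 193 to 264 TPM over the 24 bud libraries, whereas SEP3 reached at most 6.20 TPM and AP3 at most 0.366 TPM in the 18 libraries of seedlings aged 14 days, a table normalized separately. These seedlings were mtn1-1mtn2-1, mtn1-1mtn2-5 (with another mtn2 allele) and WT, with 3 libraries of each genotype on spermidine and 3 on mock. Among the 10 regulators, levels per transcript length were compared in the mock buds labelled mtn1-1mtn2-1, whose name is the same in both tables. ANT averaged 34.1 ± 3.27 TPM, STK 30.4 ± 4.87 TPM and SHP1 27.8 ± 2.45 TPM (SD, n = 4 each), with ranges that overlapped from each gene to the next. SHP2 followed at 20.5 ± 1.45 TPM, below the range of SHP1. WUS at 15.5 ± 1.55 TPM and SPL at 15.2 ± 2.10 TPM lay within each other's range, as did BEL1 at 9.26 ± 1.42 TPM and INO at 8.61 ± 0.742 TPM. AIL6 at 6.77 ± 1.003 TPM lay below the range of INO, its neighbour in this order, but overlapped that of BEL1, and ATS at 4.55 ± 0.702 TPM lay below AIL6. In seedlings INO, SPL and WUS had a count of 0 in all 18 libraries, and their TPM was not listed there. STK was at 0 in 15 of the 18 seedling libraries and reached at most 0.0652 TPM, and SHP2 reached at most 0.303 TPM. By contrast BEL1 ranged from 10.9 to 23.4 TPM and ANT from 9.72 to 14.9 TPM in seedlings. AIL6 at 2.002 to 3.70 TPM, ATS at 0.931 to 2.54 TPM and SHP1 at 0.241 to 0.766 TPM were also above 0 in all 18 seedling libraries.

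**Figure D1:**
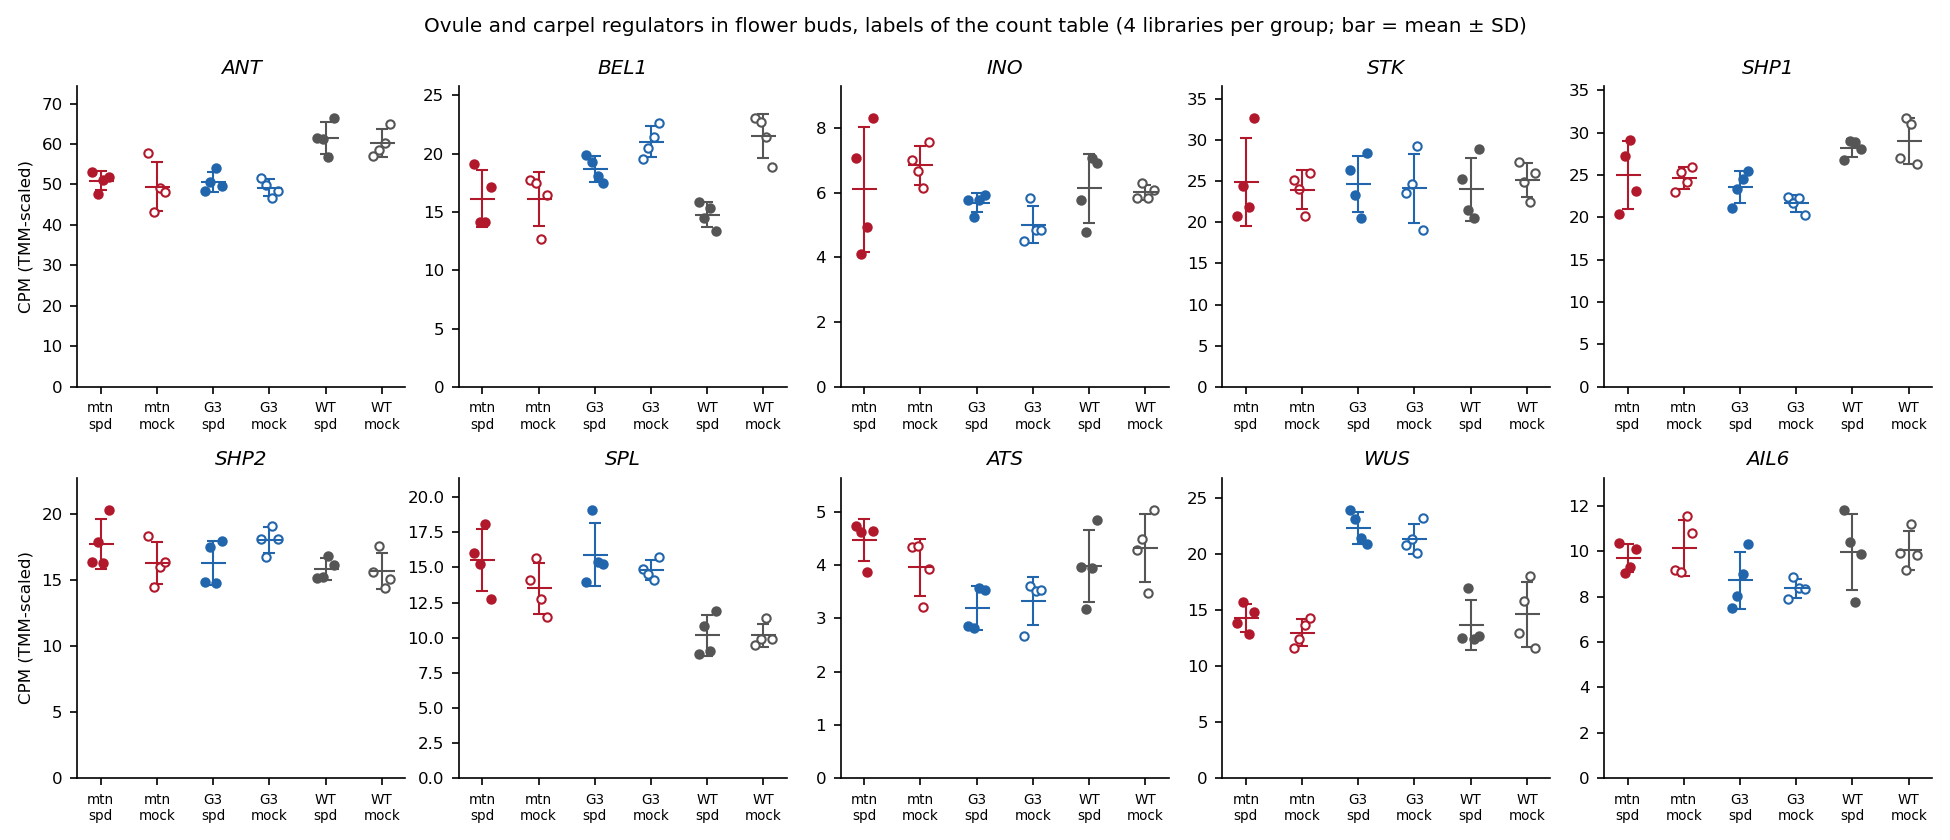
CPM of each of the 10 regulators (vertical axis, starting at 0) in the 24 bud libraries, by label and medium (mtn, mtn1-1mtn2-1; spd, spermidine). Filled points are spermidine libraries, open points mock libraries, and bars the mean ± SD of 4 libraries. WUS was highest in the libraries labelled G3 and SPL lowest in those labelled WT. Labels are those of the count table, where MTN1 and MTN2 were high in labelled G3 and low in labelled WT.

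The regulators called in each genotype comparison were counted beside the share of all tested genes called there. A gene was called where its adjusted p was under 0.05 in edgeR's quasi-likelihood test with Benjamini-Hochberg adjustment over all genes. Between mtn1-1mtn2-1 and labelled G3, 2 of the 10 regulators were called on spermidine, where 26.9% of all tested genes were, and 3 on mock, where 32.9% were. Between mtn1-1mtn2-1 and labelled WT the number was 2 on spermidine against a background of 17.3%, and 3 on mock against 20.7%. Between labelled G3 and labelled WT it was 5 on spermidine against 26.4% and 4 on mock against 29.5%. Apart from the 5 of 10 between labelled G3 and labelled WT on spermidine, these shares lay near the background, and no set test was made. The median absolute log2 fold change of the 10 genes, on spermidine and on mock, was 0.11 and 0.22 between mtn1-1mtn2-1 and labelled G3, beside 0.24 and 0.27 over all genes. It was 0.15 and 0.18 between mtn1-1mtn2-1 and labelled WT, beside 0.21 and 0.21. Between labelled G3 and labelled WT it was 0.27 and 0.28, slightly above 0.24 and 0.26 over all genes. The comparisons share libraries, so they are given side by side and not as support for each other.

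**Figure D2:**
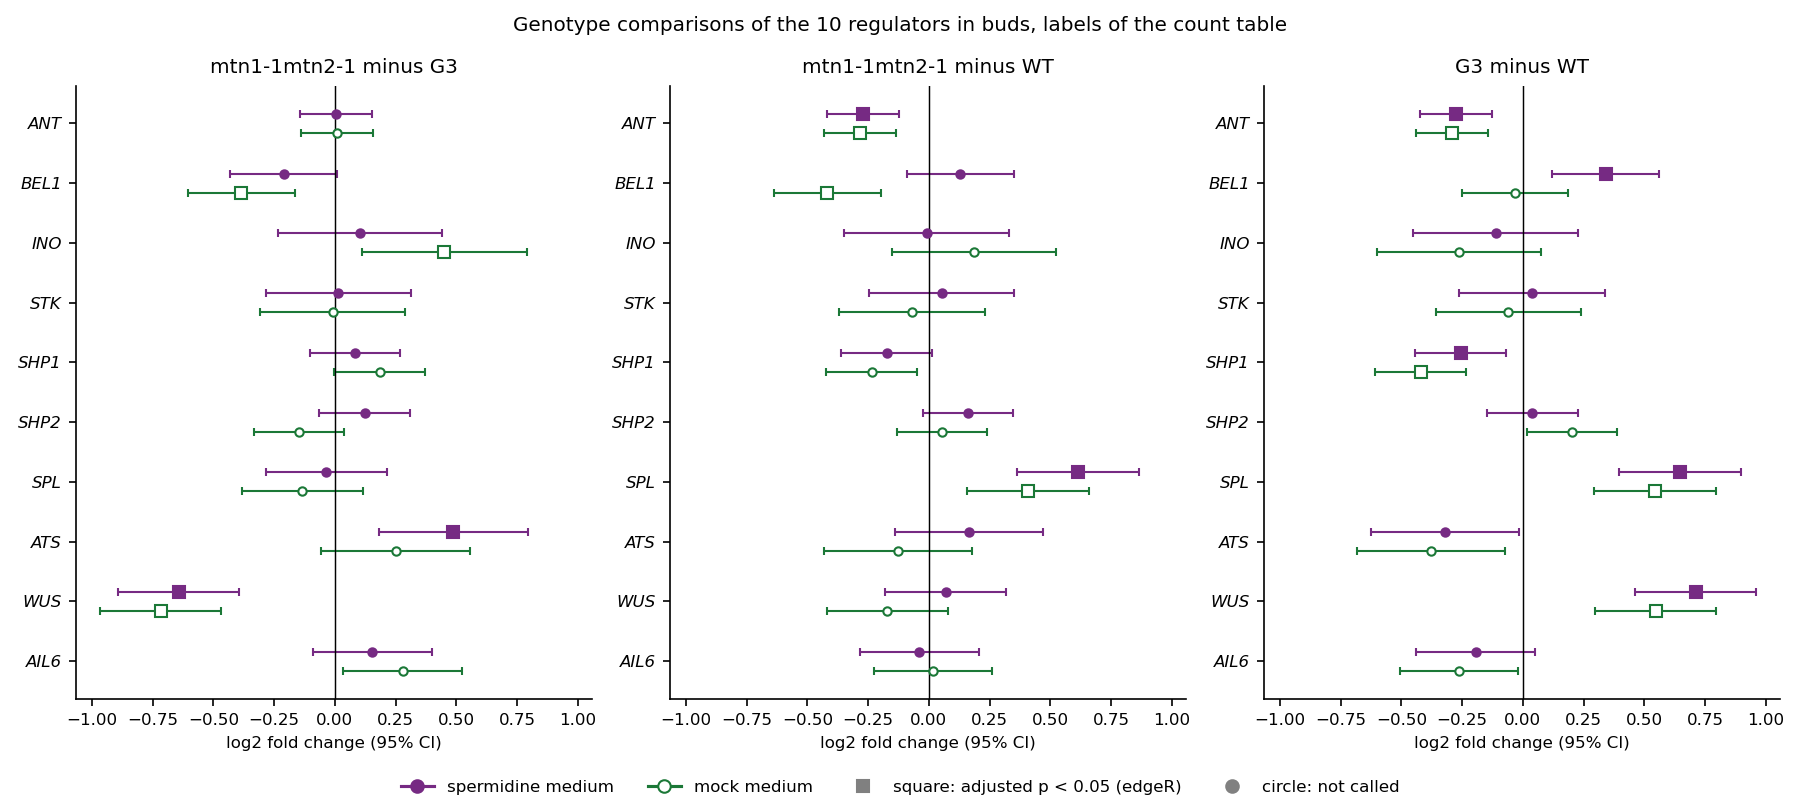
Log2 fold change (horizontal axis, with its 95% confidence interval) of the 10 regulators for mtn1-1mtn2-1 minus labelled G3, mtn1-1mtn2-1 minus labelled WT and labelled G3 minus labelled WT. Purple filled symbols are spermidine medium, green open symbols mock medium, and squares mark adjusted p under 0.05. On both media, WUS was called in both comparisons with labelled G3, at -0.72 and 0.55 on mock, and SPL and ANT in both comparisons with labelled WT. The TPM table names the labelled G3 libraries WT and the labelled WT libraries G3.

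Buds hold several tissues, so marker lists of other tissues were set beside the regulators. The summed level of 9 late pollen genes, among them the pollen pectin methylesterases VGD1 and PPME1, ranged from 750 to 1151 CPM on spermidine and 640 to 868 CPM on mock in mtn1-1mtn2-1 buds. It ranged from 1505 to 2053 CPM and 1530 to 1932 CPM in labelled G3 buds, and from 1067 to 1488 CPM and 1160 to 1454 CPM in labelled WT buds. All 9 were called lower in mtn1-1mtn2-1 than in labelled G3 on both media (edgeR). Their median log2 fold change was -1.01 on spermidine and -1.18 on mock, where 26.9% and 32.9% of all tested genes were called. Against labelled WT, 2 were lower in mtn1-1mtn2-1 on spermidine (22.2%, beside 17.3% of all genes) and 8 on mock (88.9%, beside 20.7%). In labelled G3, 8 were higher than in labelled WT on spermidine (88.9%, beside 26.4%) and 6 on mock (66.7%, beside 29.5%). VGD1 averaged 407 ± 93.4 CPM in mtn1-1mtn2-1 and 823 ± 104 CPM in labelled G3 on spermidine. Of 12 tapetum genes, 3 on spermidine and 6 on mock were called higher in mtn1-1mtn2-1 than in labelled G3, and 0 lower. That is 25.0% and 50.0% of the list, beside 26.9% and 32.9% of all genes. None of the 12 was called between mtn1-1mtn2-1 and labelled WT, beside 17.3% of all genes on spermidine and 20.7% on mock. On mock 5 were lower in labelled G3 than in labelled WT (41.7%, beside 29.5%), and 0 were called on spermidine (beside 26.4%). Their sum ranged from 882 to 1310 CPM on spermidine and 842 to 1212 CPM on mock in mtn1-1mtn2-1 buds, from 791 to 952 CPM and 665 to 936 CPM in labelled G3 buds, and from 843 to 1041 CPM and 931 to 1114 CPM in labelled WT buds. The 7 embryo sac genes, chiefly the egg cell genes of the EC1 family, summed to only 3.23 to 5.16 CPM on spermidine and 2.36 to 4.05 CPM on mock in mtn1-1mtn2-1 buds, to 3.54 to 4.59 CPM and 4.04 to 5.22 CPM in labelled G3 buds, and to 4.89 to 7.45 CPM and 4.78 to 7.06 CPM in labelled WT buds. Of these 7, 1 was lower in mtn1-1mtn2-1 than in labelled G3 on each medium (14.3%, beside 26.9% of all genes on spermidine and 32.9% on mock). In mtn1-1mtn2-1, 2 were lower than in labelled WT on mock (28.6%, beside 20.7%) and 0 on spermidine (beside 17.3%). In labelled G3, 1 was higher and 3 lower than in labelled WT on each medium (57.1%, beside 26.4% on spermidine and 29.5% on mock). The gene lower in mtn1-1mtn2-1 than in labelled G3, AGL80, a MADS-box gene of the central cell, went against most of its list, whose median log2 fold change there was 0.78 on spermidine and 0.45 on mock. However, 0 genes of the list were called higher there. EC1.1 and EC1.2 averaged 0.128 and 0.141 CPM in labelled G3 on mock, close to the floor of 0.127 to 0.156 CPM, so this median is uncertain. None of the markers was at 0 in every library of a group, but in the embryo sac list 1 gene on each medium in mtn1-1mtn2-1 buds, and 2 on spermidine and 1 on mock in labelled G3 buds, stayed at or under the floor of 3 fragments in every library. The part of these tissues in the differences of the regulators was not tested, and in whole buds fewer cells of a type and less RNA per cell cannot be told apart.

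**Figure D3:**
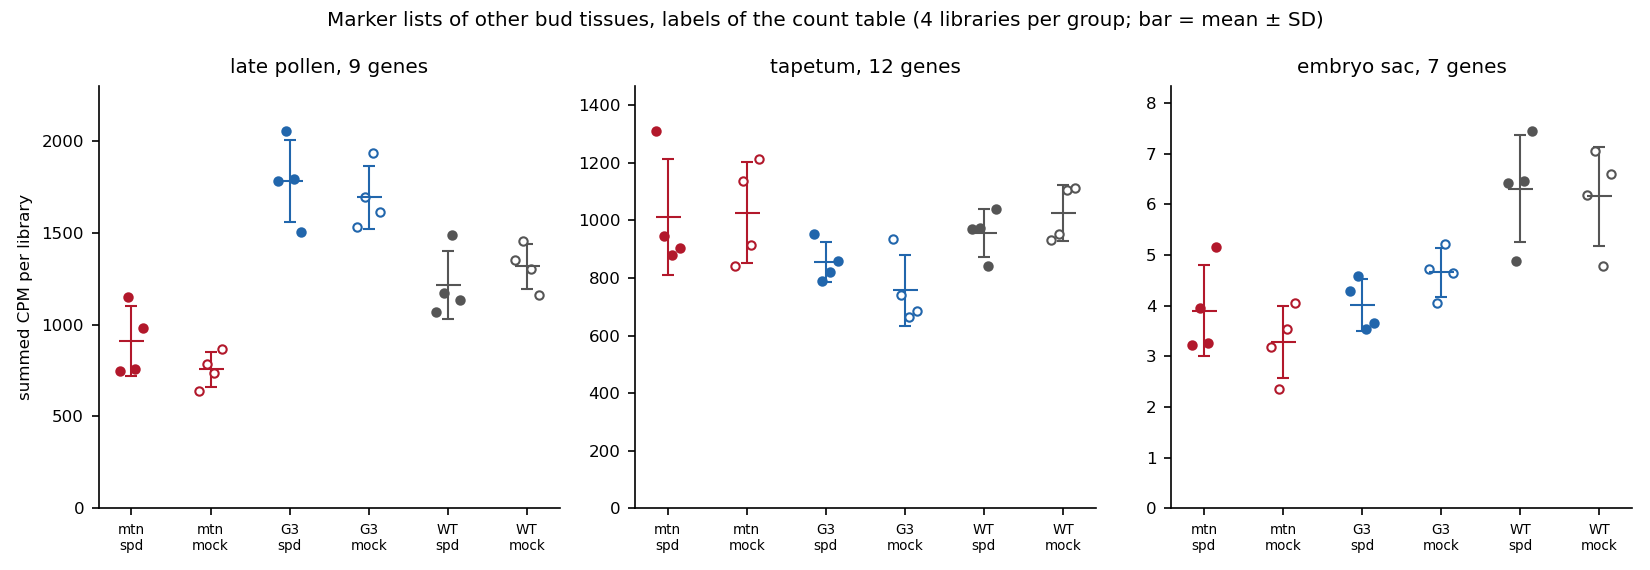
Summed CPM of the late pollen, tapetum and embryo sac lists (vertical axis, starting at 0) in the 24 bud libraries, by label and medium (mtn, mtn1-1mtn2-1; spd, spermidine). Filled points are spermidine libraries, open points mock libraries, and bars the mean ± SD of 4 libraries. The late pollen sum is lowest in mtn1-1mtn2-1 buds, highest in labelled G3 buds and between them in labelled WT buds.

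WUS (AT2G17950, chr2:7808871-7810811, minus strand in RefSeq's TAIR10.1 annotation) showed the largest genotype difference of the 10. It had 13.8, 15.7, 12.9 and 14.8 CPM in the spermidine libraries labelled mtn1-1mtn2-1, and 23.9, 23.1, 21.4 and 20.8 CPM in those labelled G3. On mock it had 11.6, 12.4, 13.7 and 14.3 CPM in mtn1-1mtn2-1 and 20.8, 21.3, 20.03 and 23.2 CPM in labelled G3. Every labelled G3 library lay above every mtn1-1mtn2-1 library on either medium. WUS was lower in mtn1-1mtn2-1 by a log2 fold change of -0.64 (SE 0.12, adjusted p = 0.000405 by edgeR) on spermidine and -0.72 (SE 0.12, adjusted p = 8.88e-05 by edgeR) on mock, 36.0% and 39.2% less.

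In the libraries labelled WT, WUS stood at 12.5, 17.0, 12.4 and 12.7 CPM on spermidine and 12.9, 15.8, 18.1 and 11.6 CPM on mock. One library on each medium, replicate 2 on spermidine and replicate 3 on mock, was the highest of its group, and both still lay below all labelled G3 libraries. Labelled G3 was above labelled WT by a log2 fold change of 0.71 (SE 0.12, adjusted p = 0.000129 by edgeR) on spermidine and 0.55 (SE 0.12, adjusted p = 0.0015 by edgeR) on mock, a direction that turns round under the names of the TPM table. Between mtn1-1mtn2-1 and labelled WT the difference was 0.07 on spermidine, with a 95% confidence interval from -0.18 to 0.32, and -0.17 on mock, from -0.42 to 0.08, so differences of up to about these sizes are not excluded. The late pollen sum was also highest in the labelled G3 libraries, although in labelled WT it lay above mtn1-1mtn2-1 on mock, where WUS did not pass the test. In the TPM table under its own names, WUS was lower in mtn1-1mtn2-1 than in WT, with a difference of -0.60 on the log2(TPM + 1) scale on spermidine (limma adjusted p = 0.000448) and -0.75 on mock (limma adjusted p = 2.90e-05).

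The 300 bases before the annotated start of WUS are shown because this gene carried the strongest difference, in a window where a binding sequence could be looked for. Capitals mark GAGAGA on either strand, the GA-rich sequence of BASIC PENTACYSTEINE factors, which are known to act on ovule genes in this species. The letters TTAATGG, a sequence that WUS itself is known to bind, and the CArG box of MADS-box proteins were searched on both strands too. The sequence is from RefSeq TAIR10.1, chr2:7810812-7811111, given on the minus strand, 5′ to 3′.
WUS: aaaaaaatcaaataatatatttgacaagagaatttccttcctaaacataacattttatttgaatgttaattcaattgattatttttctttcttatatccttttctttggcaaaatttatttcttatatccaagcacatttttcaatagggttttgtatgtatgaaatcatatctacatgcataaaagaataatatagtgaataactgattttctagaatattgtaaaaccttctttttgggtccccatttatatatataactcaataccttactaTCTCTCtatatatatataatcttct
GAGAGA occurred once, 25 to 20 bases before the start, on the opposite strand. Of the windows of all 27443 protein-coding genes, 23.6% held GAGAGA, 8.04% TTAATGG and 2.92% a CArG box. Of the windows of 9 regulators examined, 5 held GAGAGA, 0 TTAATGG and 1, that of SHP2, a CArG box. Such a match is a description of letters, and no binding was measured.

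SPL (AT4G27330, chr4:13682078-13683594, minus strand) was set apart by the labelled WT libraries, named G3 in the TPM table, where it was low. It had 16.1, 15.2, 18.1 and 12.8 CPM on spermidine and 14.1, 15.7, 12.8 and 11.5 CPM on mock in mtn1-1mtn2-1 buds. In labelled G3 buds it had 13.9, 19.1, 15.4 and 15.3 CPM on spermidine and 14.9, 14.5, 14.1 and 15.7 CPM on mock. In labelled WT buds it had 8.85, 10.8, 9.02 and 11.9 CPM on spermidine and 9.51, 9.88, 11.4 and 9.94 CPM on mock. On each medium every library labelled WT lay below all those of the other labels.

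The SPL difference between mtn1-1mtn2-1 and labelled WT was a log2 fold change of 0.61 (SE 0.12, adjusted p = 0.00112 by edgeR) on spermidine and 0.41 (SE 0.12, adjusted p = 0.0191 by edgeR) on mock. Between labelled G3 and labelled WT it was 0.65 (SE 0.12, adjusted p = 0.000354 by edgeR) on spermidine and 0.54 (SE 0.12, adjusted p = 0.00167 by edgeR) on mock, and this direction turns round under the names of the TPM table. Between mtn1-1mtn2-1 and labelled G3 it was -0.04 on spermidine (95% confidence interval from -0.28 to 0.21) and -0.13 on mock (from -0.38 to 0.11). Under the names of the TPM table the comparison with labelled WT is mtn1-1mtn2-1 against G3. In that table, on the log2(TPM + 1) scale, mtn1-1mtn2-1 minus WT was -0.03 (limma adjusted p = 0.879) on spermidine and -0.20 (limma adjusted p = 0.168) on mock. The call against labelled WT on mock was lost without replicate 2 of mtn1-1mtn2-1 (0.35, edgeR adjusted p = 0.0598) and without replicate 1 of labelled WT (0.40, edgeR adjusted p = 0.0517). The mean embryo sac sum was highest in labelled WT buds, where SPL was lowest. Its labelled WT libraries overlapped those of mtn1-1mtn2-1 on spermidine and those of labelled G3 on mock, and a link with SPL was not tested. The window before SPL, chr4:13683595-13683894 on the minus strand, is shown for comparison with that of WUS and held none of the 3 motifs, so all letters are in lower case.
SPL: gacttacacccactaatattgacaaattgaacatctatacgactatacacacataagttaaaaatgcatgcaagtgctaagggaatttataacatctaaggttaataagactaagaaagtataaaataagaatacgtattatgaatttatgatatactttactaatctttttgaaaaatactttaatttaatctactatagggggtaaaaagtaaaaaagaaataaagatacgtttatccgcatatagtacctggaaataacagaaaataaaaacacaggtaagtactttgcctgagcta

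ANT (AT4G37750, chr4:17739514-17742407, plus strand), an AP2-type transcription factor that promotes integument and organ growth, was highest in labelled WT buds, named G3 in the TPM table. It had 53.1, 47.7, 51.2 and 51.7 CPM on spermidine and 57.7, 43.1, 49.01 and 48.05 CPM on mock in mtn1-1mtn2-1 buds. In labelled G3 buds it had 48.5, 50.6, 54.2 and 49.6 CPM on spermidine and 51.7, 49.95, 46.7 and 48.3 CPM on mock. In labelled WT buds it had 61.6, 61.1, 56.7 and 66.4 CPM on spermidine and 57.1, 58.5, 60.2 and 65.0 CPM on mock. Replicate 1 of mtn1-1mtn2-1 on mock, at 57.7 CPM, was the single library of the other labels to reach into the labelled WT range.

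ANT was lower in mtn1-1mtn2-1 than in labelled WT by a log2 fold change of -0.27 (SE 0.07, adjusted p = 0.0107 by edgeR) on spermidine and -0.28 (SE 0.07, adjusted p = 0.00688 by edgeR) on mock, 17.1% and 17.8% less. Labelled G3 was lower than labelled WT by -0.28 (SE 0.07, adjusted p = 0.00573 by edgeR) on spermidine and -0.29 (SE 0.07, adjusted p = 0.0037 by edgeR) on mock, a direction that turns round under the names of the TPM table. Between mtn1-1mtn2-1 and labelled G3 the difference was 0.01 on each medium, with 95% confidence intervals from -0.14 to 0.15 on spermidine and from -0.14 to 0.16 on mock. Under the names of the TPM table the comparison with labelled WT is mtn1-1mtn2-1 against G3. In that table, on the log2(TPM + 1) scale, mtn1-1mtn2-1 minus WT was 0.01 (limma adjusted p = 0.926) on spermidine and -0.07 (limma adjusted p = 0.434) on mock. Against labelled WT, the mtn1-1mtn2-1 call on spermidine was lost without replicate 4 of labelled WT (-0.22, edgeR adjusted p = 0.0526). The call on mock was lost without replicate 2 of mtn1-1mtn2-1 (-0.20, edgeR adjusted p = 0.0516), without replicate 4 of labelled WT (-0.22, edgeR adjusted p = 0.050007), and in a fit of these 2 groups alone (-0.26, edgeR adjusted p = 0.0973).

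AIL6 (AT5G10510, chr5:3315401-3320323, plus strand), a relative of ANT that acts with it in floral organ growth, was called in none of the 12 comparisons made. It ranged from 9.05 to 10.4 CPM on spermidine and 9.08 to 11.5 CPM on mock in mtn1-1mtn2-1 buds, from 7.51 to 10.3 CPM and 7.88 to 8.87 CPM in labelled G3 buds, and from 7.75 to 11.8 CPM and 9.17 to 11.2 CPM in labelled WT buds. On mock every labelled G3 library lay below those of both other labels. The difference of mtn1-1mtn2-1 from labelled G3 on mock, 0.28 with a 95% confidence interval from 0.04 to 0.52, did not pass the adjustment over all genes (edgeR adjusted p = 0.0736), though it did without replicate 1 or replicate 2 of mtn1-1mtn2-1 (0.34 and 0.35, edgeR adjusted p = 0.0397 and 0.0369). Labelled G3 minus labelled WT was -0.19 (edgeR adjusted p = 0.248) on spermidine, called without replicate 3 of labelled WT (-0.31, edgeR adjusted p = 0.0480), and -0.26 (edgeR adjusted p = 0.0997) on mock, called in a fit of these groups alone (edgeR adjusted p = 0.0400). The coding sequences of ANT and AIL6 shared 65.4% of 1489 aligned bases.

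BEL1 (AT5G41410, chr5:16579936-16584077, plus strand), a homeodomain protein that gives the chalaza the identity from which integuments form, was the 1 regulator whose level was called different between media. In labelled WT buds it had 15.8, 14.5, 15.3 and 13.3 CPM on spermidine, against 23.03, 22.7, 21.4 and 18.8 CPM on mock. No spermidine library reached the lowest mock library. The log2 fold change was -0.54 (SE 0.11, adjusted p = 0.015 by edgeR), 31.4% less on spermidine, in a comparison in which 0.948% of all tested genes were called. The call was lost without replicate 1 of labelled WT on mock (-0.50, edgeR adjusted p = 0.074), without replicate 2 on mock (-0.51, edgeR adjusted p = 0.0718) and without replicate 4 on spermidine (-0.49, edgeR adjusted p = 0.0857). Under the names of the TPM table it belongs to G3 buds, where the difference on the log2(TPM + 1) scale was -0.47 (limma adjusted p = 0.0305).

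In the other genotypes BEL1 differed less between media. It had 19.1, 14.1, 14.2 and 17.2 CPM on spermidine, against 17.7, 17.5, 12.7 and 16.5 CPM on mock, in mtn1-1mtn2-1 buds, where the difference was 0.005 with a 95% confidence interval from -0.22 to 0.22. It had 19.9, 19.3, 18.04 and 17.5 CPM on spermidine, against 19.5, 20.5, 21.4 and 22.6 CPM on mock, in labelled G3 buds, where the difference was -0.17 with an interval from -0.39 to 0.05. The response of mtn1-1mtn2-1 minus that of labelled WT was 0.55 (SE 0.15, 95% confidence interval from 0.24 to 0.86), and this interaction did not pass the adjustment (edgeR adjusted p = 0.114), although the DESeq2 Wald test called it (0.53, DESeq2 adjusted p = 0.0407). The response of labelled G3 minus that of labelled WT was 0.37 (edgeR adjusted p = 0.87), so the medium difference was not shown to be particular to labelled WT.

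Between genotypes, BEL1 was lower in mtn1-1mtn2-1 buds on mock, with 16.1 ± 2.33 CPM against 21.0 ± 1.33 CPM in labelled G3 and 21.5 ± 1.91 CPM in labelled WT (SD, n = 4 each). The log2 fold change was -0.39 (SE 0.11, adjusted p = 0.00745 by edgeR) against labelled G3 and -0.42 (SE 0.11, adjusted p = 0.00719 by edgeR) against labelled WT, without overlap of the libraries in either case. In a fit of mtn1-1mtn2-1 and labelled WT alone the difference between them was -0.39 (edgeR adjusted p = 0.0558). On spermidine mtn1-1mtn2-1 differed from labelled G3 by -0.21 (edgeR adjusted p = 0.154) and from labelled WT by 0.13 (edgeR adjusted p = 0.443). Labelled G3 was higher than labelled WT on spermidine by 0.34 (SE 0.11, adjusted p = 0.0206 by edgeR), a direction that turns round under the names of the TPM table. That call was lost without replicate 1 or replicate 2 of labelled G3 (0.30 and 0.31, edgeR adjusted p = 0.0697 and 0.0615) and without replicate 2 or replicate 4 of labelled WT (0.32 and 0.29, edgeR adjusted p = 0.0533 and 0.0787). The window before BEL1, chr5:16579636-16579935 on the plus strand, is shown because it held the GA-rich sequence in 3 overlapping copies (capitals), 116 to 107 bases before the start. The window of AIL6, which was called in no comparison, held 6 copies, and those of INO, STK, SPL and ATS held 0. A tie between this sequence and the calls was not tested.
BEL1: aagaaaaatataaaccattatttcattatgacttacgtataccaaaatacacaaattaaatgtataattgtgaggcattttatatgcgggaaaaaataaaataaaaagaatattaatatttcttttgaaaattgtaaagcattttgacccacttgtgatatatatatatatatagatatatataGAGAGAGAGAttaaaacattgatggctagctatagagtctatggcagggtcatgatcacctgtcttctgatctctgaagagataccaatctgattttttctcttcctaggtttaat

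The regulators of the 2 integuments, INO and ATS, each differed in 1 comparison, both times with mtn1-1mtn2-1 above labelled G3. INO (AT1G23420, chr1:8317297-8319491, plus strand), a YABBY protein needed for the outer integument, had 6.996, 6.66, 6.14 and 7.57 CPM in mtn1-1mtn2-1 buds and 4.51, 5.83, 4.84 and 4.85 CPM in labelled G3 buds on mock. The groups did not overlap, and the log2 fold change was 0.45 (SE 0.16, adjusted p = 0.0382 by edgeR). This call rested on few libraries and was lost in 5 of 8 fits without 1 library, with edgeR adjusted p = 0.079 without replicate 1, 0.0645 without replicate 3 and 0.0643 without replicate 4 of labelled G3, and 0.0541 without replicate 1 and 0.0776 without replicate 4 of mtn1-1mtn2-1. On spermidine the mtn1-1mtn2-1 libraries spread from 4.09 to 8.30 CPM, around the labelled G3 range of 5.25 to 5.92 CPM, and the difference was 0.10 (95% confidence interval from -0.24 to 0.44).

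ATS (AT5G42630, chr5:17073673-17075904, minus strand), a KANADI protein that keeps the integuments separate, had 4.74, 4.61, 3.87 and 4.65 CPM in mtn1-1mtn2-1 buds and 2.85, 2.81, 3.56 and 3.53 CPM in labelled G3 buds on spermidine. The groups did not overlap, and the log2 fold change was 0.49 (SE 0.15, adjusted p = 0.0174 by edgeR). On mock ATS had 4.34, 4.36, 3.21 and 3.93 CPM in mtn1-1mtn2-1 and 2.66, 3.61, 3.51 and 3.52 CPM in labelled G3, groups that overlapped, with a difference of 0.25 (edgeR adjusted p = 0.206). In labelled WT buds ATS ranged from 3.18 to 4.84 CPM on spermidine and 3.48 to 5.04 CPM on mock. Labelled G3 minus labelled WT was -0.32 (edgeR adjusted p = 0.118) on spermidine and -0.38 (edgeR adjusted p = 0.0581) on mock. Both passed without 1 labelled WT library, replicate 2 on spermidine (-0.43, edgeR adjusted p = 0.0443) or replicate 3 on mock (-0.46, edgeR adjusted p = 0.0281).

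The MADS-box genes STK, SHP1 and SHP2 differed little, and SHP1 alone was called. SHP1 (AT3G58780, chr3:21738160-21742517, plus strand) had 20.4, 27.3, 29.2 and 23.1 CPM on spermidine and 23.05, 25.4, 24.1 and 25.9 CPM on mock in mtn1-1mtn2-1 buds. In labelled G3 buds it had 21.1, 23.3, 24.6 and 25.5 CPM on spermidine and 22.4, 21.7, 22.3 and 20.2 CPM on mock. In labelled WT buds it had 26.8, 29.1, 28.9 and 28.1 CPM on spermidine and 27.03, 31.7, 31.0 and 26.3 CPM on mock, above all labelled G3 libraries of the same medium.

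Labelled G3 was lower in SHP1 than labelled WT by a log2 fold change of -0.26 (SE 0.09, adjusted p = 0.0389 by edgeR) on spermidine and -0.42 (SE 0.09, adjusted p = 0.0012 by edgeR) on mock, a direction that turns round under the names of the TPM table. The spermidine call was lost in 5 of 8 fits without 1 library, with edgeR adjusted p = 0.114 without replicate 1 and 0.0641 without replicate 2 of labelled G3, and 0.072 without replicate 2, 0.0667 without replicate 3 and 0.0594 without replicate 4 of labelled WT. Between mtn1-1mtn2-1 and labelled WT the difference was -0.17 (edgeR adjusted p = 0.197) on spermidine and -0.24 (edgeR adjusted p = 0.0676) on mock. SHP2 (AT2G42830, chr2:17820114-17824013, plus strand) ranged from 14.4 to 20.3 CPM over all 24 libraries and was called in none of the 12 comparisons. The nearest was 0.20 for labelled G3 minus labelled WT on mock (edgeR adjusted p = 0.0952), which passed without replicate 2 of labelled WT (0.27, edgeR adjusted p = 0.0389). STK (AT4G09960, chr4:6236375-6241281, minus strand) ranged from 19.1 to 32.7 CPM, and its largest absolute log2 difference in the 12 comparisons was 0.12, with edgeR adjusted p of 0.789 or more. Its 95% confidence interval for mtn1-1mtn2-1 minus labelled G3 ran from -0.28 to 0.31 on spermidine and from -0.31 to 0.29 on mock.

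SHP1 and SHP2 are close paralogs, so it was asked whether reads could be assigned to each. Their coding sequences were identical at 83.9% of 741 aligned bases, against 68.2% for SHP1 and STK and 67.3% for SHP2 and STK. The 180 bases in which the pair is most alike, bases 47 to 226 of each RefSeq TAIR10.1 coding sequence, are shown with the 14 bases that differ in capitals.
SHP1: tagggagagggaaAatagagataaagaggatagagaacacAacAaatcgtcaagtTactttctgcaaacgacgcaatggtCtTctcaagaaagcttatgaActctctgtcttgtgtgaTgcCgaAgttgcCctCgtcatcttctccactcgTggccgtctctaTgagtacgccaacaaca
SHP2: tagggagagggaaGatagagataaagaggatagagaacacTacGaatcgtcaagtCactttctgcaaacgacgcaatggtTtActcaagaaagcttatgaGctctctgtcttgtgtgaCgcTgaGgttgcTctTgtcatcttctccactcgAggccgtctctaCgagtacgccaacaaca
The longest run of identical aligned bases was 34, and none of the 50-base words of the exons of any of the 10 genes occurred elsewhere in the genome. Words across an exon junction could be missed in this search, because the genome is not spliced. The length of 50 was a setting of the search, and the assignment of the reads themselves was not tested. A second limit is strand. STK, SHP1, SHP2 and AIL6 each overlap an annotated gene on the opposite strand (AT4G09950 at STK, AT3G09155 and AT3G58790 at SHP1, AT2G42835 at SHP2 and AT5G10520 at AIL6), and the strand setting of the counting is not given in the sources used here, so reads of overlapping genes cannot be told apart.

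The other 9 regulators were not called between media in any genotype. Of the 10, 0 were called in mtn1-1mtn2-1 buds, where 0.0972% of all tested genes were, and 0 in labelled G3 buds, where 0.0155% were. In those 2 comparisons 0 of the 10 had an unadjusted p under 0.05 by edgeR, and the DESeq2 Wald test called 0 as well. The largest absolute difference was 0.20, for SPL in mtn1-1mtn2-1 buds (95% confidence interval from -0.05 to 0.45), and 0.18, for INO in labelled G3 buds (from -0.16 to 0.52). In labelled WT buds the 9 genes other than BEL1 lay between -0.12 and 0.03. The interactions of medium and genotype called 0 of the 10, with backgrounds of 0.0233%, 0.346% and 0.00389% for mtn1-1mtn2-1 against labelled G3, mtn1-1mtn2-1 against labelled WT, and labelled G3 against labelled WT. In each of these 3 interactions 1 regulator had an unadjusted p under 0.05, and the DESeq2 Wald test called 1, BEL1 in the second. The buds came from plants moved to soil after growth on the medium, and the time between spermidine and harvest is not given in the sources used here.

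**Figure D4:**
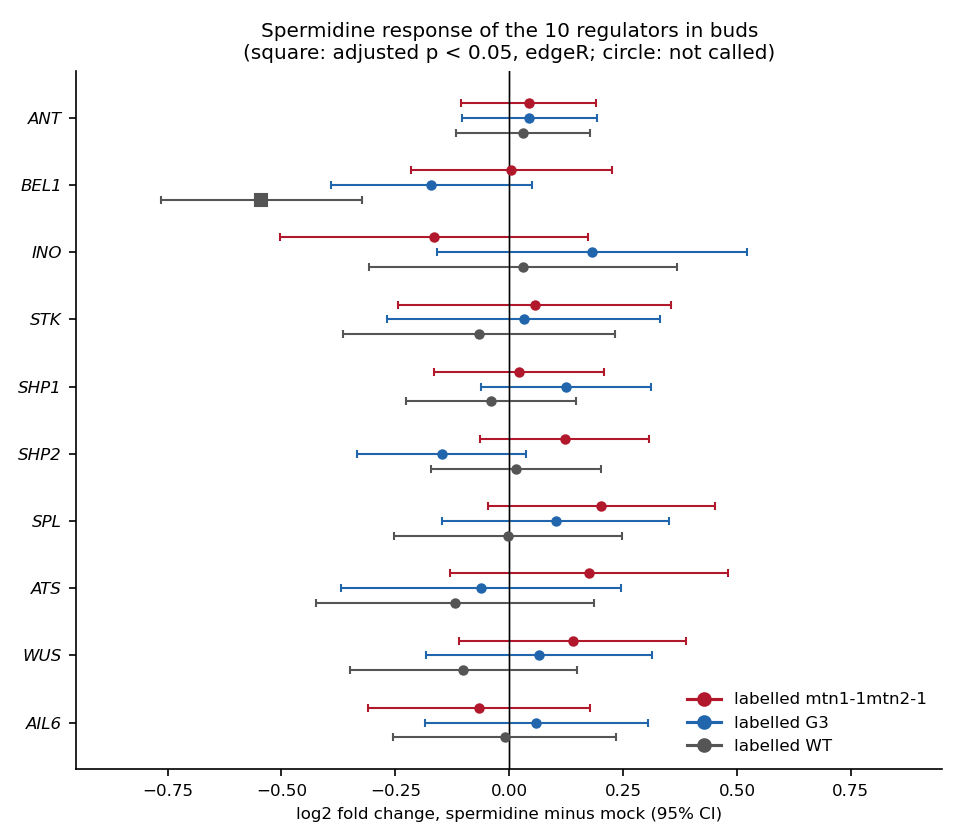
Log2 fold change of spermidine minus mock (horizontal axis, with its 95% confidence interval) for the 10 regulators in buds labelled mtn1-1mtn2-1, G3 and WT. Squares mark adjusted p under 0.05. Of the 30 values, BEL1 in labelled WT buds, at -0.54, is the 1 called.

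Other regulators of the gynoecium and ovule were read from 3 lists of 55 genes together. Of 24 carpel patterning genes, 3 were called higher and 2 lower in mtn1-1mtn2-1 than in labelled G3 on spermidine, and 2 higher and 2 lower on mock. That is 20.8% and 16.7% of the list, below the 26.9% and 32.9% of all tested genes. ETT, an auxin response factor that patterns the gynoecium, was higher on both media, with a mean of 105 ± 6.78 CPM in mtn1-1mtn2-1 buds, against 83.9 ± 3.18 CPM in labelled G3 on spermidine (log2 fold change 0.32, edgeR adjusted p = 0.00661) and 112 ± 13.8 and 82.7 ± 9.46 CPM on mock (0.44, edgeR adjusted p = 0.000355). FUL, which shapes the fruit valves, was lower on both, at 28.7 ± 4.37 and 37.8 ± 5.52 CPM on spermidine (-0.40, edgeR adjusted p = 0.0262) and 25.3 ± 5.04 and 36.4 ± 4.20 CPM on mock (-0.53, edgeR adjusted p = 0.00317). The boundary genes CUC1 and CUC2 were each called higher once, CUC1 on spermidine (0.59, edgeR adjusted p = 0.0416) and CUC2 on mock (0.47, edgeR adjusted p = 0.0221). Against labelled WT, mtn1-1mtn2-1 had 1 of 24 higher and 3 lower on each medium, 16.7% of the list beside 17.3% of all genes on spermidine and 20.7% on mock. CRC, a YABBY gene of carpels and nectaries, was lower on both, at 28.9 ± 2.28 CPM against 36.2 ± 1.63 CPM on spermidine (-0.33, edgeR adjusted p = 0.0203) and 27.4 ± 4.65 CPM against 37.3 ± 3.01 CPM on mock (-0.45, edgeR adjusted p = 0.00203). CRC was also lower in labelled G3 than in labelled WT, by -0.27 on spermidine (edgeR adjusted p = 0.0364) and -0.42 on mock (edgeR adjusted p = 0.00208). Between these labels 2 of the 24 were called higher and 2 lower on spermidine, and 1 higher and 4 lower on mock. That is 16.7% and 20.8% of the list, beside 26.4% and 29.5% of all genes. The median log2 fold change of the carpel list was -0.01 on spermidine and -0.02 on mock between mtn1-1mtn2-1 and labelled G3, beside 0.01 over all genes on each medium.

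Of 17 further genes of ovules and integuments, 2 were called higher and 2 lower in mtn1-1mtn2-1 than in labelled G3 on spermidine, and 3 higher and 2 lower on mock. That is 23.5% and 29.4% of the list, close to the 26.9% and 32.9% of all tested genes. Against labelled WT, 2 were higher and 2 lower on spermidine (23.5%, beside 17.3% of all genes) and 2 higher and 4 lower on mock (35.3%, beside 20.7%). CNA, an HD-ZIP III factor of the family that patterns ovules and vascular tissue, was higher in all 4 comparisons of mtn1-1mtn2-1 with another label. It had 111 ± 2.43 CPM in mtn1-1mtn2-1, against 88.0 ± 2.50 CPM in labelled G3 (0.34, edgeR adjusted p = 0.000173) and 86.4 ± 1.28 CPM in labelled WT (0.37, edgeR adjusted p = 0.00013), on spermidine. On mock it had 114 ± 9.35 CPM in mtn1-1mtn2-1, against 82.8 ± 4.08 CPM in labelled G3 (0.45, edgeR adjusted p = 4.36e-06) and 85.5 ± 6.56 CPM in labelled WT (0.41, edgeR adjusted p = 3.15e-05). UCN, a kinase that restrains integument growth, was lower in mtn1-1mtn2-1 on mock, at 11.6 ± 1.71 CPM against 17.0 ± 1.198 CPM in labelled G3 (-0.55, edgeR adjusted p = 0.000427) and 15.3 ± 1.39 CPM in labelled WT (-0.40, edgeR adjusted p = 0.0097). HLL, a mitochondrial ribosomal protein needed for early ovule growth, was lower in labelled G3 than in labelled WT on both media, by -0.33 on spermidine (edgeR adjusted p = 0.0224) and -0.41 on mock (edgeR adjusted p = 0.00561). PHB of the same list was called higher there, by 0.26 on each medium. Between these labels 1 of the 17 was higher and 2 lower on spermidine (17.6%, beside 26.4% of all genes). On mock 2 were higher and 4 lower (35.3%, beside 29.5%). AIL7, another relative of ANT, stood at a mean of 2.66 ± 0.836 CPM in mtn1-1mtn2-1 buds, against 1.45 ± 0.238 CPM in labelled G3 on mock (0.88, edgeR adjusted p = 0.0116).

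Among 13 tested genes of floral identity and meristems, from a list of 14, 1 was called higher and 4 lower in mtn1-1mtn2-1 than in labelled G3 on spermidine, and 0 higher and 4 lower on mock, 38.5% and 30.8% of the genes tested, beside 26.9% and 32.9% of all genes. Against labelled WT the balance was the other way, with 6 higher and 2 lower in mtn1-1mtn2-1 on spermidine (61.5%, beside 17.3% of all genes) and 3 higher and 2 lower on mock (38.5%, beside 20.7%). Labelled G3 had 6 higher and 1 lower than labelled WT on spermidine (53.8%, beside 26.4% of all genes) and 5 higher and 0 lower on mock (38.5%, beside 29.5%). AP1, which acts in sepals, petals and the onset of flowering, was lower with a mean of 115 ± 14.1 CPM in mtn1-1mtn2-1 buds, against 149 ± 9.52 CPM in labelled G3 on spermidine (-0.37, edgeR adjusted p = 0.00111) and 123 ± 8.14 and 160 ± 8.41 CPM on mock (-0.38, edgeR adjusted p = 0.000685). AG, the carpel and stamen identity gene that ends WUS expression in the flower, was lower on mock, with a mean of 69.7 ± 5.91 CPM in mtn1-1mtn2-1 buds, against 91.0 ± 3.42 CPM in labelled G3 (-0.38, edgeR adjusted p = 0.00169). Against labelled WT, AG was higher in mtn1-1mtn2-1 on spermidine, with 80.6 ± 11.7 CPM beside 59.1 ± 3.58 CPM in labelled WT (0.45, edgeR adjusted p = 0.000999). AG was also higher in labelled G3 than in labelled WT on both media, by 0.50 on spermidine (edgeR adjusted p = 0.000194) and 0.36 on mock (edgeR adjusted p = 0.00304), as WUS was. PI, a petal and stamen identity gene, was lowest in labelled WT buds, by 0.70 (edgeR adjusted p = 0.00507) for mtn1-1mtn2-1 minus labelled WT and 0.81 (edgeR adjusted p = 0.000842) for labelled G3 minus labelled WT on spermidine. KNU, a repressor of WUS, was called in 2 comparisons with 1 of the 2 groups close to the floor of 3 fragments per library, 0.127 to 0.156 CPM, and no fold is given for it. It had 0.176 ± 0.0927 CPM in labelled G3 and 0.447 ± 0.0843 CPM in labelled WT on spermidine (edgeR adjusted p = 0.0486), and 0.391 ± 0.0861 CPM in mtn1-1mtn2-1 and 0.148 ± 0.0922 CPM in labelled WT on mock (edgeR adjusted p = 0.0497). Directions between labelled G3 and labelled WT turn round under the names of the TPM table for these lists too. Comparisons of mtn1-1mtn2-1 with labelled WT are then comparisons with G3.

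The tested gene most like each regulator was looked up by Pearson's r of log2 CPM over the 24 bud libraries, among 21385 genes. These libraries share the 6 groups, so a gene that differs between the same labels is alike on that account. The highest r was 0.957, for WUS and AT4G04460, followed by 0.908 for SPL and AT1G58889, annotated as a pseudogene, and 0.898 for ANT and EMB2775 (AT5G27740), a replication factor C subunit. The lowest of the 10 best values were 0.736 for STK and 0.759 for INO.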

How the data were processed

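Polyadenylated RNA of flower buds (24 libraries) and seedlings (18 libraries) was sequenced, with libraries from either of 2 providers, and which provider made which library is not recorded in the labels. The deposited bud table holds estimated counts per gene as whole numbers, per the file headers and values, in which 1 fragment is worth about 3.91 units. The deposited TPM tables give TPM, levels scaled by the authors for transcript length and depth. Trim Galore, STAR, StringTie and the build TAIR10 are named in the submitters' processing notes, and their roles and versions, the counting rule, strand setting and annotation are not given in the sources used here.

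Columns were mapped to samples by name. Counts of all 24 bud libraries were fitted in 6 groups with edgeR 4.0.16 (R 4.3.3) after its low-count filter and TMM scaling, and adjusted by Benjamini-Hochberg over 25730 genes. Alternatives used DESeq2 1.42.0 and limma 3.58.1. The fits were also run on simulated counts with larger changes than those called for the regulators, so that run does not cover changes of their size. Log2 CPM used a prior count of 2. The floor was 3 fragments per library. TPM were tested as log2(TPM + 1). The members and gene lists were chosen with earlier results of these data known. Named genes were MTN1, MTN2, the 10 regulators and at most 4 called genes of a list with the largest fold change in each genotype comparison, and the text gives a part of these, chosen after their values were seen. Sequences are from RefSeq, TAIR10.1, and 1 upstream window is not reported here. Same-numbered replicates do not come from a stated shared source.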

Additional observations from a re-analysis of the deposited data

Results flagged for a closer look

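Of 72 groups of 4 libraries examined for the 10 regulators, MTN1 and MTN2, 5 had 1 library far from the other 3 by Dixon's ratio (gap to the nearest over the range, above its 95% critical value). Chance flags about 1 in 20 groups. WUS in labelled WT buds on spermidine had 16.96 CPM in replicate 2, above 12.4 to 12.7 CPM in the others (ratio 0.943). ATS had 3.87 CPM in replicate 3 of mtn1-1mtn2-1 on spermidine, below 4.61 to 4.74 CPM (ratio 0.852), and 2.66 CPM in replicate 1 of labelled G3 on mock, below 3.51 to 3.61 CPM (ratio 0.891). MTN1 had 84.3 CPM in replicate 4 of labelled G3 on mock, below 89.7 to 90.6 CPM (ratio 0.851). MTN2 had 0.101 CPM in replicate 4 of labelled WT on spermidine, above 0.0427 to 0.0485 CPM (ratio 0.901) and below the floor of 3 fragments.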

How the results depend on the processing

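All 20 calls of the regulators kept their direction and threshold under DESeq2 size factors, no low-count filter, a mean of at least 50 counts, counts per fragment and the DESeq2 Wald test, and 18 did in fits of the compared groups alone, which called 1 regulator for mtn1-1mtn2-1 against labelled WT on mock. The DESeq2 Wald test also called 1 regulator in the interaction of mtn1-1mtn2-1 and labelled WT. Replicate numbers did not pair the samples (correlations of deviations from -0.105 to 0.115), and a replicate block kept all 20 calls and added 1, SHP1 in mtn1-1mtn2-1 against labelled WT on mock (-0.23, edgeR adjusted p = 0.0411), so that 4 regulators were called there. A mean of at least 50 counts added ATS (-0.38, edgeR adjusted p = 0.0496) and fits of the compared groups alone added AIL6 (-0.26, edgeR adjusted p = 0.0400), both on mock, for labelled G3 minus labelled WT. In fits without 1 library, 13 of 20 calls were kept in every fit, and the number of regulators called ranged, on mock and on spermidine, from 2 to 4 and 2 to 2 for mtn1-1mtn2-1 against labelled G3, from 1 to 3 and 1 to 2 against labelled WT, from 4 to 5 and 3 to 5 for labelled G3 against labelled WT, and from 0 to 1 for spermidine in labelled WT.

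Limma on TPM under that table's own names kept 2 of the 20 calls. The names WT and G3 are exchanged there, so G3 against WT turns round and mtn1-1mtn2-1 is compared with other libraries. The lost calls therefore do not measure how TPM or limma changes a result. With a pseudocount of 1, filtered or not, and of 0.1, the reversed values on the log2 scale were 0.0767 and 0.0809 for WUS (mtn1-1mtn2-1 against G3, spermidine), -0.20 and -0.21 for SPL on mock, -0.0282 and -0.0295 for SPL and 0.0108 and 0.0111 for ANT on spermidine (mtn1-1mtn2-1 against WT). For G3 against WT on mock they were 0.25 and 0.25 for ANT, 0.33 and 0.34 for SHP1, -0.55 and -0.58 for SPL, and -0.56 and -0.59 for WUS. On spermidine they were 0.28 and 0.29 for ANT, -0.31 and -0.34 for BEL1, 0.27 and 0.28 for SHP1, -0.61 and -0.64 for SPL, and -0.68 and -0.71 for WUS. Under those names, on TPM or counts, spermidine called 1 regulator in G3 and 0 in WT. With the WT and G3 columns of the TPM table exchanged, an alternative chosen after seeing the data, all 20 directions and 19 calls were kept, INO on mock being lost (0.35, limma adjusted p = 0.0828).

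Counts over all genes moved most between media. For spermidine in mtn1-1mtn2-1 the 25 genes called became 1 in fits of the compared groups alone, 302 with DESeq2, 3 with the replicate block, 15 per fragment and 12 on TPM with a pseudocount of 0.1, and 1 to 237 without 1 library. In labelled G3 the 4 became 8, 597, 224, 10, 8, 251 to 288 and 244 (mean of at least 50 counts, compared groups, DESeq2, block, per fragment, TPM, names of the TPM table on counts), and 0 to 44 without 1 library. In labelled WT the 244 became 385 and 696 (compared groups, DESeq2), 6 to 7 on TPM and 4 under the TPM names, and 30 to 333 without 1 library. Under the TPM names the 4 and the 244 only trade places, because renaming does not change the fit. Interactions ranged from 0 to 275, 2 to 520 and 0 to 15 genes against 6, 89 and 1. For mtn1-1mtn2-1, the TPM names exchange the 8470 and 6932 genes against labelled G3 (mock, spermidine) with the 5315 and 4450 against labelled WT. This exchange is fixed by the renaming. Against labelled WT the count was 3205 on mock in fits of the compared groups alone. On TPM, mtn1-1mtn2-1 against WT by that table's names, which compares other libraries, reached up to 9077 and 7637. ATS and INO, at a few CPM, had the widest intervals among the called regulators.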
